A study of Mus musculus with 12 samples.

Results

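Gene expression was compared between 393P cells carrying a form of Zeb1 labelled deficient and 393P cells carrying a GFP vector, the negative control of the study. 393P is a mouse lung cancer cell line, labelled as epithelial and non-metastatic, and the cells were untreated and grown in RPMI with fetal bovine serum. The series title concerns acetylation of ZEB1 at lysine 811 (K811), so the deficient line is read as carrying an acetylation-deficient Zeb1, not as lacking Zeb1. The comparison uses 6 of the 12 libraries of the series, 3 per line, and all 12208 genes of the count table, of which 12027 had enough counts to be tested. The other 6 libraries are of 393P cells with wild-type Zeb1 (WT) or with the form labelled mimetic, 3 each, and are used to show where the deficient line differs from other Zeb1 lines. The labels number 3 biological replicates per line, whereas the design text speaks of 2. Each Zeb1 form is a single line, so a p-value reflects only how far libraries of a line spread, pooled over all 4 lines. The Zeb1 form cannot be told apart from whatever else differs between lines.

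Zeb1 carries clusters of zinc fingers that bind E-box motifs in promoters and enhancers. It is best known for silencing epithelial genes, E-cadherin first among them, through recruited corepressors, one of which is the NuRD complex of nucleosome remodellers and histone deacetylases named in the series title. In lung adenocarcinoma cells its rise accompanies the epithelial-mesenchymal transition (EMT), in which cells lose junctions and apical-basal polarity and take up a migratory, matrix-producing state. Zeb1 can also activate genes, among them TGF-beta and YAP targets, by binding other factors.

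Library totals ran from 33301106 to 39029599 counts in vector and from 31010854 to 32950740 in deficient. Levels are given as CPM, a gene's counts scaled to a common library size with TMM factors, and the libraries are tags from the 3' end of transcripts. A value with ± is the mean of 3 libraries and its SD. In both lines replicate 3 stood furthest from the other libraries of its line, by a mean chi-square of counts per gene of 17.1 and 23.6 in deficient and 13.7 and 21.2 in vector, against 5.25 and 6.23 between replicates 1 and 2. Without deficient replicate 3 the counts called higher and lower, given below, were 3259 and 3487, and without vector replicate 3 they were 3407 and 3518. Mitochondrially encoded genes took 0.933% ± 0.103 of the counts in vector and 0.707% ± 0.0129 in deficient, and ribosomal protein genes took 5.79% ± 0.306 and 6.49% ± 0.196 (SD, n = 3, exact two-sided permutation test, p = 0.1 for each, the smallest p that 3 against 3 libraries allow). Gene models that contain satellite repeats took 0.603%, 0.41% and 0.491% of the counts in the vector libraries and 0.934%, 0.574% and 1.65% in the deficient libraries, against at most 0.0312% in any WT or mimetic library. The part of composition in the results was not tested. Leaving out the satellite and mitochondrial genes gave 3415 genes called higher and 3573 lower, close to the counts with them. This shows only that those genes held few of the calls, and ribosomal protein genes were kept. The cells carried epithelial markers throughout: 9 of 12 were tested, with summed levels per vector library of 9200 to 10600 CPM and per deficient library of 7820 to 7940. Most of each sum came from Krt8 and Krt18. Of the 9 markers, 6 were called lower in deficient than in vector and 2 higher, both by at least 2-fold. Epcam, Cldn4 and Esrp1 were absent from the count table. Of the fibroblast markers 3 of 8 were tested, with sums of 1.84 to 2.48 CPM in vector and 2.36 to 3.47 in deficient. Endothelial markers (3 of 6 tested) summed to 0.317 to 1.45 and 5.61 to 7.76 CPM, most of it in deficient from Kdr, a gene chosen after its values were seen, and immune markers (2 of 8, Cd68 and Cd14) to 51.7 to 65.5 and 25.8 to 27.9 CPM. Alveolar type 2 markers (2 of 7) summed to 68.3 to 74.3 and 54.6 to 62.9 CPM, and the 1 of 7 club, ciliated or basal markers tested, Krt14, to 0.121 to 0.184 and 0.995 to 1.89 CPM. In these bulk libraries fewer cells of a type and less RNA per cell cannot be told apart.

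Zeb1 itself (chromosome 18, 5591860 to 5775467, plus strand, GRCm38) stood at 30.1, 34.4 and 29.3 CPM in the 3 vector libraries and at 485, 470.0 and 496 CPM in the 3 deficient libraries. Every deficient library lay far above every vector library, a 15.5-fold difference (log2 fold change 3.95, SE 0.06, adjusted p = 1.98e-21, edgeR's quasi-likelihood test, as are all adjusted p-values below). WT stood at 244 ± 6.87 CPM and mimetic at 228 ± 12.2 CPM (SD, n = 3), so the measured Zeb1 level in deficient was 1.98-fold that of WT (adjusted p = 2.07e-12). Differences between the Zeb1 lines given below are therefore differences between lines with unequal measured Zeb1 levels as well as different Zeb1 forms. These counts do not separate resident from introduced Zeb1 transcripts, and how fully the end tags capture the introduced ones is not known. They carry no information on the altered site and do not measure protein.

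At an adjusted p under 0.05, 7001 of 12027 genes differed between the deficient line and vector, which is 58.2% of those tested. Of all tested genes 28.4% were called higher in deficient (3421 genes) and 29.8% lower (3580 genes). With library size as the only scaling, 3928 were called higher and 3149 lower, so which direction holds more calls depends on the scaling. Most called differences were small, with a median of 1.33-fold among the higher and 1.31-fold among the lower genes. Large differences leaned upward: 669 genes (5.56%) were at least 2-fold higher and 358 (2.98%) at least 2-fold lower, and 103 against 27 differed at least 8-fold. Among genes of at least 5 CPM in 3 libraries, 300 were at least 2-fold higher and 222 lower, a smaller lean. With so many genes called, the counts of gene lists below are to be read against these percentages, and the median log2 fold change of all genes was 0.00.

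**Figure D1:**
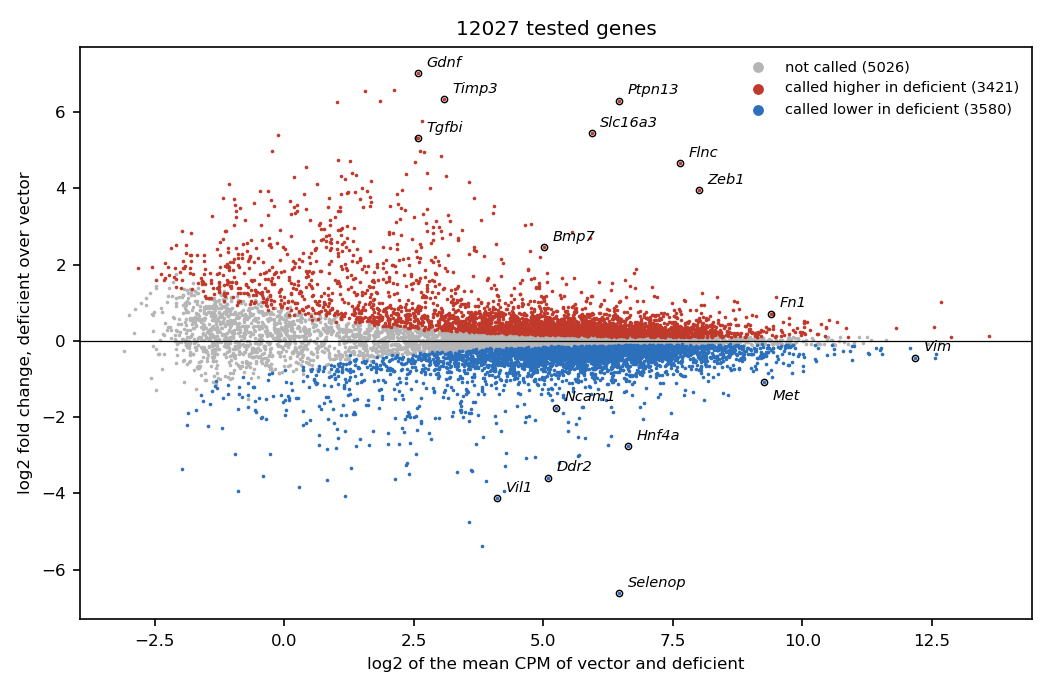
Log2 fold change of deficient over vector (vertical axis) against the log2 of the mean CPM of both lines (horizontal axis), 1 point per tested gene, red for the 3421 genes called higher, blue for the 3580 called lower and grey for those not called. The cloud of called genes lies close to 0, and the points past 8-fold (3 on the axis) are more often above than below, with Ptpn13, Flnc and Slc16a3 high and Selenop, Vil1 and Ddr2 low.

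Ptpn13, Slc16a3 and Flnc were among the genes with the largest rises. Ptpn13 (chromosome 5, 103425192 to 103598303, plus strand), a large tyrosine phosphatase with PDZ and FERM domains that sits at the cell cortex, gave 2.42, 2.68 and 1.64 CPM in the vector libraries and 177, 174 and 174 in the deficient libraries. The deficient libraries differed little from each other and lay 78.8-fold above vector (log2 fold change 6.30, SE 0.09, adjusted p = 1.31e-21). Mimetic followed at 131 CPM and WT at 24.8, so the deficient level was 7.07-fold that of WT (adjusted p = 8.31e-18). Slc16a3, the lactate exporter MCT4, stood at 2.72, 3.14 and 2.43 CPM in vector and 116, 119 and 124 in deficient, 43.5-fold higher (adjusted p = 1.31e-21). Flnc, filamin C, an actin crosslinker best known from muscle, stood at 15.5, 15.4 and 14.8 CPM against 344, 361 and 443, 25.1-fold higher (adjusted p = 1.12e-19). Both were also higher in deficient than in WT, at 69.5 and 238 CPM, and than in mimetic, at 76.9 and 292 CPM.

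Several large rises began close to the limit of detection. Gdnf, glial cell line-derived neurotrophic factor and the ligand that acts through the receptor RET, had only 3, 4 and 2 counts in the vector libraries and 428, 365 and 352 in the deficient libraries. Timp3, an inhibitor of metalloproteinases held in the matrix, had 3, 8 and 10 counts in vector and 510, 501 and 601 in deficient. Has2, the main hyaluronan synthase of mesenchymal cells, had 23, 11 and 8 counts in vector and 445, 422 and 352 in deficient. In all 3 genes the lowest deficient library was far above the highest vector library, but the size of each ratio rests on few vector counts. Has2 stood at 12.6 CPM in deficient against 3.29 in WT and 6.05 in mimetic, called higher in both comparisons, whereas Timp3 was higher in mimetic (38.4 CPM) than in deficient (16.7 CPM). Wisp1, a matricellular protein of the CCN family, rose from 1.26 ± 0.212 to 22.6 ± 0.79 CPM (SD, n = 3), and Kcnn3, a calcium-activated potassium channel, from 0.609 ± 0.0864 to 13 ± 0.794. The leptin receptor Lepr, the dystrophin-complex protein Sspn and the actin-oxidising enzyme Mical1 rose as well, to 15.9, 16.6 and 11.1 CPM, each from under 1 CPM and each below the WT level.

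Selenop, Vil1, Calml4 and Ifitm1 were among the genes with the largest falls. Selenop, the secreted selenium carrier, gave 168, 175 and 183 CPM in vector and 1.81, 2.14 and 1.38 in deficient, 98.2-fold lower (log2 fold change -6.62, SE 0.09, adjusted p = 1.31e-21). Vil1, villin, which bundles actin in brush-border microvilli, gave 30.9, 32.2 and 35.2 CPM in vector and 1.99, 2.2 and 1.41 in deficient, 17.5-fold lower (adjusted p = 2.66e-14). In both genes every vector library was more than 10 times every deficient library. Hnf4a, the nuclear receptor that directs liver and gut differentiation, fell from 171, 181 and 172 to 26.5, 23.4 and 27.4 CPM, a 6.77-fold difference (adjusted p = 2.66e-18). Cdh17, the liver-intestine cadherin, fell 6.64-fold to 19.8 ± 0.276 CPM, the galectin Lgals4 5.61-fold to 24 ± 2.37 and its relative Lgals2 8.17-fold to 11.1 ± 1.16 (SD, n = 3). Calml4, a calmodulin-like protein of the brush border, fell from 23 to 0.855 CPM. Other large falls were of the collagen receptor Ddr2 (63.3 to 5.26 CPM), the interferon-induced membrane protein Ifitm1 (27.6 to 0.669), the branched-chain aminotransferase Bcat1 (18.5 to 1.71), the proprotein convertase Pcsk6 (45.2 to 5.32) and the secreted kinase Fam20c (22.2 to 2.14). Of these 12 genes, 8 were lower still in WT than in deficient. Hnf4a stood at 4.19 CPM there (6.12-fold below deficient, adjusted p = 4.75e-16), Lgals4 at 1.47 and Vil1 at 0.299. Cdh17, Calml4 and Ifitm1 were not called between deficient and WT, and Selenop was lower in deficient (WT at 2.32 CPM, adjusted p = 0.0289).

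Epithelial junction genes were called lower in deficient more often than higher, most by less than 2-fold, and several rose. E-cadherin (Cdh1, chromosome 8, 106603351 to 106670246, plus strand), the adhesion molecule of adherens junctions and the best-known Zeb1 target, stood at 657, 690.0 and 664 CPM in vector and 461, 447 and 428 in deficient. The groups did not overlap, and the difference was 1.5-fold (log2 fold change -0.59, SE 0.05, adjusted p = 1.48e-09). Cdh1 was lower in WT, at 198 CPM, and in mimetic, at 287 CPM, than in deficient (adjusted p = 5.88e-14 and 2.91e-09). Of the 14 tested adherens junction genes, 9 fell and 1 rose, with a median log2 fold change of -0.23. Plakoglobin (Jup) fell 1.63-fold and alpha-catenin (Ctnna1) 1.55-fold, while beta-catenin (Ctnnb1), at 668 ± 23.1 CPM in vector and 683 ± 10.3 in deficient, was not called.

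Tight junction genes split by gene. Of 19 tested, 9 fell and 4 rose (median -0.26). Occludin (Ocln), a membrane protein of the junction strand, gave 8.74, 10.1 and 8.64 CPM in vector and 2.99, 2.79 and 2.34 in deficient, 3.37-fold lower (adjusted p = 1.3e-08). Tricellulin (Marveld2), which seals corners where cells meet, fell from 19.7, 18.4 and 20.5 to 7.09, 7.7 and 7.35 CPM, 2.65-fold (adjusted p = 8.4e-09). The pore-forming claudin Cldn2 fell from 307 ± 12.5 to 115 ± 4.57 CPM, and the scaffolds Tjp1 and Tjp3 fell 1.68-fold and 2.2-fold. Going the other way, Cldn3, a barrier-forming claudin, stood at 16, 16.4 and 18.1 CPM in vector and 43.8, 39.8 and 48.6 in deficient, 2.61-fold higher (adjusted p = 1.99e-11). Cldn12 rose from 41.5 ± 1.14 to 119 ± 3.69 CPM (2.86-fold), Cldn6 from 524 ± 9.51 to 613 ± 5.83 (1.17-fold), and the junctional adhesion molecule F11r 1.14-fold. Cldn3 and Cldn12 both lie on chromosome 5, where the median gene was also higher in deficient (0.25 on the log2 scale, described below). All 4 claudin and adhesion genes that rose were higher in deficient than in WT and in mimetic.

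Desmosome and plakin genes were called in both directions, 4 of 10 higher and 4 lower (median -0.07). Desmoplakin (Dsp), which ties desmosomes to keratin, gave 109.8, 117 and 106 CPM in vector and 145, 148 and 141 in deficient, 1.3-fold higher with no overlap (adjusted p = 1.48e-06). In WT it stood at 3.98 CPM, 36.1-fold below deficient (adjusted p = 8.2e-22), and in mimetic at 61.7 CPM. Plakophilin 1 (Pkp1) rose from 1.82 ± 0.376 to 10.5 ± 1.88 CPM, whereas periplakin (Ppl) and Perp, a p53-induced desmosome protein, fell 1.42-fold and 1.3-fold.

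Apical-basal polarity genes fell in 9 of 19 and rose in 5 (median -0.15). Crb3 (chromosome 17, 57059105 to 57065918, plus strand), the Crumbs protein of the apical membrane, stood at 2.45, 3.47 and 2.38 CPM in vector and 5.22, 4.69 and 5.1 in deficient, 1.81-fold higher (adjusted p = 0.000792). The lowest deficient library was above the highest vector library, and WT libraries stood at 0.381, 0.226 and 0.249 CPM, 17.5-fold below deficient (adjusted p = 1.13e-10). Mpdz, a multi-PDZ scaffold, rose from 13.7 ± 0.346 to 43.1 ± 4.11 CPM but was higher again in WT, at 88 CPM. The basolateral protein Llgl2 fell 1.43-fold, from 19.1 ± 2.41 to 13.4 ± 1.94 CPM, and Dlg1 1.36-fold. Patj, a Crumbs-complex scaffold, fell only 1.14-fold (adjusted p = 0.012), and that call was lost without deficient replicate 1 (adjusted p = 0.0641) or without vector replicate 3 (adjusted p = 0.0512). The PAR complex gene Pard6b was not called, at 35.1 ± 1.17 against 37.4 ± 6.79 CPM. It stood at 8.36 CPM in WT and 14.1 in mimetic, below deficient in both comparisons (adjusted p = 1.78e-12 and 3.22e-09).

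The E-box that Zeb1 zinc fingers bind, CACCTG, was searched on both strands (CAGGTG on the other) of promoter windows from RefSeq (GRCm38.p6), which span a gene's start. Windows are shown so that genes that rose can be set beside genes that fell, with matches in capitals. Printed, 5′ to 3′, are Crb3 and 4 other named epithelial genes. These 4 held the most matches among the genes eligible for printing. Not all named epithelial genes were eligible, so the 4 are not a ranking of all of them. Crb3 (chr17:57061951-57062250, plus strand) and Cldn6 (chr17:23679115-23679414, plus strand) rose. Spint2 (chr7:29281928-29282227, minus strand), Ocln (chr13:100552449-100552748, minus strand) and Patj (chr4:98395576-98395875, plus strand) fell.
Crb3: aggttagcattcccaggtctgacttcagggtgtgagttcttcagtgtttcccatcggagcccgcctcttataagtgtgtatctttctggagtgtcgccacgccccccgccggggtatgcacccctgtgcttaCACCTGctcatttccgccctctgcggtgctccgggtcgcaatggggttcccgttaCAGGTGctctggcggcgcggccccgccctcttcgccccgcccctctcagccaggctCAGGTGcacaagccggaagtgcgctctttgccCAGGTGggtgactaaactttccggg
Cldn6: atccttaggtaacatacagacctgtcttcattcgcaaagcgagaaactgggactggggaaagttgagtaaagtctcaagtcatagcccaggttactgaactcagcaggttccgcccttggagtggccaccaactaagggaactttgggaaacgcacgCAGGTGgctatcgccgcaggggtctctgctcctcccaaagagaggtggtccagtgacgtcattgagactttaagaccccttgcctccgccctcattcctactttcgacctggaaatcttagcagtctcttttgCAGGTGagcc
Spint2: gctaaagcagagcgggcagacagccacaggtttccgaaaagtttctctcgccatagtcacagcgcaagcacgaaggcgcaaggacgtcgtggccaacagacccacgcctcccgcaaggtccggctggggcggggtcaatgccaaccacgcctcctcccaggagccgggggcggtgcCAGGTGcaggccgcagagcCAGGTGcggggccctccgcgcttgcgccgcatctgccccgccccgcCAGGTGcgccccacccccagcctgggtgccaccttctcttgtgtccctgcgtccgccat
Ocln: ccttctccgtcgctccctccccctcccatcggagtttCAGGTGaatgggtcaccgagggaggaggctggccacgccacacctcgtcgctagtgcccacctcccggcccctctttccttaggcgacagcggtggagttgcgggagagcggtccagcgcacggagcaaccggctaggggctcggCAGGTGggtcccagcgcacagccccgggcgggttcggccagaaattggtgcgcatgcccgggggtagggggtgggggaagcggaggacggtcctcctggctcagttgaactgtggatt
Patj: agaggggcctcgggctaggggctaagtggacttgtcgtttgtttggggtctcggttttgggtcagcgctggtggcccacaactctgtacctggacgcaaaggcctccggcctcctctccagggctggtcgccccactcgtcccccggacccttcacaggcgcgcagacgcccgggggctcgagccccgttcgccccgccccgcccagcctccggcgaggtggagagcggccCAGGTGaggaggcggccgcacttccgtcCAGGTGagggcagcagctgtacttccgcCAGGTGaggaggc
Crb3, printed by a preset choice, holds 4 matches and rose, while Spint2 and Patj hold 3 each and fell. Where a gene had several windows, the one with the most matches was printed. Crb3 and Ocln had 2 windows each and Patj 3, while Spint2 and Cldn6 had 1 each. The motif stood in 44.2% of the 86 windows of tested epithelial genes, which cover 58 of the 87 such genes and not Cdh1. These genes include those reported as direct ZEB1 targets, so their share may in part be set by the choice of genes. The share was 22.2% for windows of genes at least 2-fold higher and 26.9% for those at least 2-fold lower. It was 18.4% for those not called, 18.1% for the 11832 windows of all tested genes and 20.2% for all 32851 windows. A match describes letters and is not a measured binding site.

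Among keratins, Krt8, Krt18, Krt19 and Krt7 fell, by 1.26-, 1.18-, 1.29- and 1.14-fold. Krt8 and Krt18, the simple-epithelium pair, went from 3329 ± 268 to 2636 ± 38.3 CPM and from 3147 ± 285 to 2662 ± 40.3 CPM. Krt7 went from 862, 816 and 920.4 to 747, 743 and 795 CPM (adjusted p = 0.00192), while in WT it stood at 58.8 CPM, 13-fold below deficient. Vimentin (Vim), the mesenchymal intermediate filament, also fell, from 5289.8, 5023 and 5756 to 3862, 3936 and 4022 CPM (1.36-fold, adjusted p = 5.76e-08). In all, 7 of 11 intermediate filament and lamin genes fell and 2 rose, with a median of -0.18.

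Among 22 tested epithelial identity genes, mainly transcription factors and differentiation products, 11 fell and 5 rose (median -0.24). Falls of at least 2-fold were those of Vil1, Hnf4a, Cdh17 and Lgals4 given above and that of Tspan1, a tetraspanin chosen after its values were seen, from 55.2 ± 4.49 to 23.6 ± 2.28 CPM. Another 3 genes of the list rose by at least 2-fold. The protease inhibitor Spint2 fell 1.75-fold, from 144 ± 8.68 to 82.4 ± 6.14 CPM. Klf5, a Kruppel-like factor of proliferating epithelium, gave 116, 118 and 117 CPM in vector and 134, 136 and 153 in deficient, 1.21-fold higher (adjusted p = 0.000126). Klf4 rose 1.35-fold and Grhl1, a grainyhead factor, from 1.38 ± 0.359 to 5.55 ± 0.631 CPM. The basement membrane protein ladinin (Lad1), at 568 ± 29.6 CPM in vector and 577 ± 20.4 in deficient, was not called. The splicing regulator Esrp2, chosen after its values were seen, stood at 49.5 ± 1.21 and 47.2 ± 6.9 CPM and was not called, against 13 CPM in WT (adjusted p = 3.63e-13 for deficient against WT). Of 11 tested genes reported as direct ZEB1 targets, 4 rose and 4 fell against vector (median 0.09), and without vector replicate 3 the count lower was 2.

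Set against the other Zeb1 lines, tight junction, desmosome and epithelial identity genes were called higher in deficient more often than lower. Of all tested genes 53.8% were called between deficient and WT, 27.5% higher in deficient and 26.3% lower. Between deficient and mimetic 27.4% were called, 14.9% higher and 12.6% lower (1789 and 1510 genes, or 1509 and 1982 with library size as the only scaling). Tight junction genes were higher in 12 of 19 against WT and lower in 1, and higher in 11 against mimetic and lower in 3. Epithelial identity genes were higher in 15 of 22 against WT and lower in 2, with a median of 1.31, and higher in 10 against mimetic and lower in 6. Direct ZEB1 target genes were higher in 9 of 11 against WT and in 7 against mimetic, with 0 lower in both. Desmosome and plakin genes were higher in 6 of 10 against WT and lower in 1, and higher in 7 against mimetic. The lean was smaller among adherens junction genes (6 of 14 higher and 2 lower against WT) and polarity genes (7 of 19 higher and 5 lower), a difference between lists that was not tested.

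**Figure D2:**
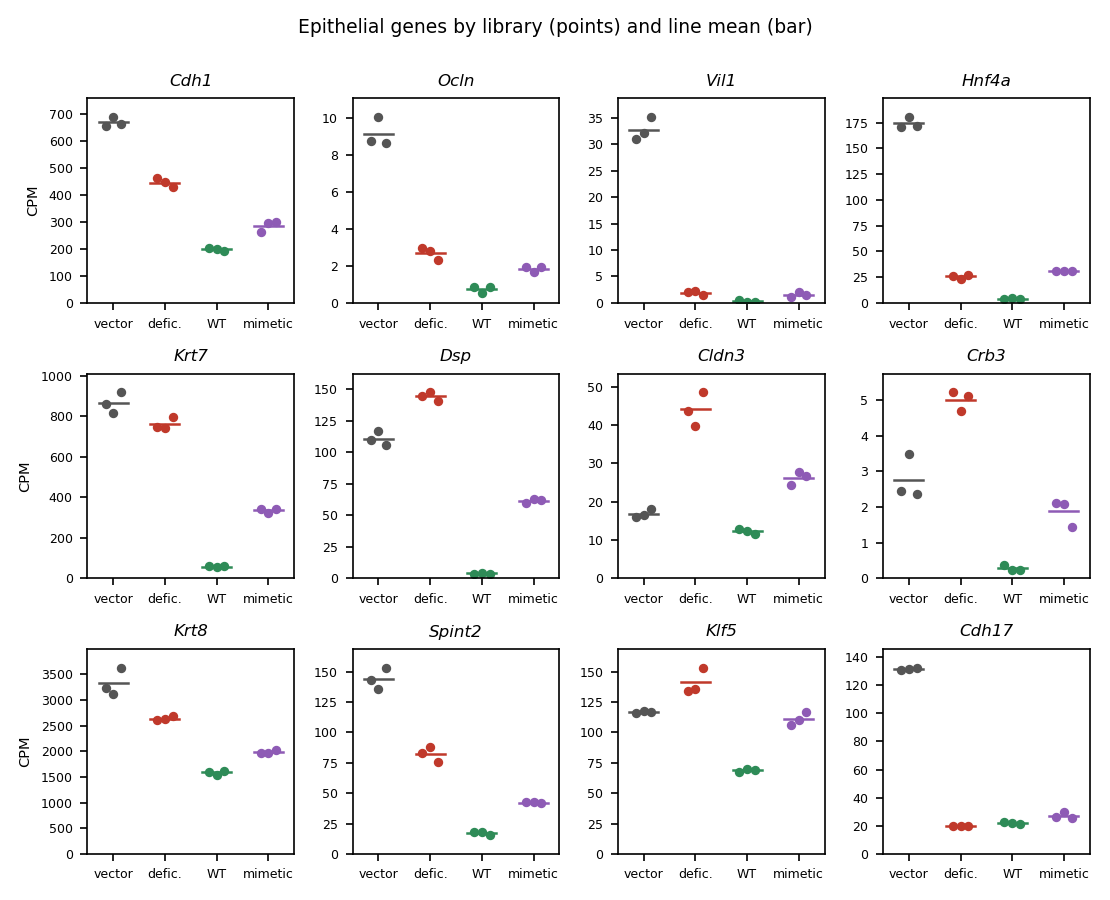
CPM (vertical axes, from 0) of 12 epithelial genes in the 3 libraries of each line, with vector, deficient, WT and mimetic from left to right; points are libraries and bars are line means. Cdh1, Ocln and Spint2 lie between vector and WT in the deficient line, Dsp, Cldn3, Crb3 and Klf5 lie above every other line, and Vil1, Hnf4a and Cdh17 are low in all 3 Zeb1 lines.

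Of 21 tested transcription factors of EMT, 7 rose and 3 fell (median 0.08; 5 fell without vector replicate 3). Snai2 (Slug), a zinc-finger repressor of E-cadherin, gave 7.56, 6.52 and 6.84 CPM in vector and 16.3, 17.5 and 18.1 in deficient, 2.48-fold higher (adjusted p = 1.07e-09), above WT at 11.2 and mimetic at 11.6 CPM. Zeb2, the paralogue of Zeb1, rose 1.29-fold to 58.8 ± 1.75 CPM and Sox4 1.48-fold to 81.8 ± 14.1 CPM. Twist1, chosen after its values were seen, rose from 0.495 ± 0.203 to 3.76 ± 0.218 CPM. Snai1 stayed under 1 CPM in both lines and was not called, and the ETS factor Etv4 and the forkhead factor Foxq1 fell 1.2-fold and 1.43-fold.

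Of 26 tested mesenchymal genes, 16 rose and 4 fell, with a median log2 fold change of 0.60. Fibronectin (Fn1), the adhesive matrix glycoprotein, stood at 528, 582 and 418 CPM in vector and 812, 817 and 876 in deficient, 1.64-fold higher with no overlap (adjusted p = 1.84e-07). Tgfbi, a TGF-beta-induced matrix protein, gave 0.302, 0.154 and 0.396 CPM in vector and 12.2, 11.6 and 11.1 in deficient, and tenascin C (Tnc) 0.363, 0.215 and 0.396 and 5.49, 5.71 and 6.9. In both, every deficient library was more than 10 times every vector library. Sparc rose 1.52-fold to 312 ± 8.18 CPM, Timp1 1.8-fold, Mmp14, a membrane-bound collagenase, 1.51-fold, and the actin regulator Cald1 1.49-fold. Other mesenchymal genes fell or were not called. N-cadherin (Cdh2) fell from 56.2, 54.3 and 50.6 to 36.9, 37.5 and 39.9 CPM, 1.41-fold (adjusted p = 8.37e-07), in contrast to 75.7 CPM in WT. The neural adhesion molecule Ncam1 fell 3.38-fold, the myosin kinase Mylk 3.11-fold and the calcium-binding protein S100a4 2.62-fold. The receptor kinase Axl was not called, at 755 ± 34.8 against 707 ± 35.1 CPM (log2 fold change -0.10), but was called lower with the replicate number as a block (adjusted p = 0.032), with limma's voom (0.0485), without deficient replicate 3 (0.00995) and without vector replicate 2 (0.0393). The hyaluronan receptor Cd44 and smooth muscle actin (Acta2) were not called, at 499 ± 43.1 against 493 ± 25.4 and 0.497 ± 0.129 against 0.655 ± 0.155 CPM. Wnt5a, a ligand of non-canonical WNT signalling, rose only to 2.88 ± 0.376 CPM in deficient against 24.2 in WT (8.36-fold lower than WT, adjusted p = 1.05e-13).

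Collagens and their modifying enzymes rose in 15 of 30 and fell in 5 (median 0.33). Col6a1 and Col6a2, partner chains of the beaded collagen VI, rose from 1.78 ± 0.45 to 23.6 ± 0.596 and from 0.496 ± 0.162 to 5.79 ± 0.607 CPM. The fibrillar chain Col5a1 gave 49.7, 45.2 and 50.7 CPM in vector and 158, 157 and 182 in deficient, 3.41-fold higher (adjusted p = 1.89e-15). Col7a1, the anchoring fibril collagen, rose 2.08-fold. The basement membrane chains Col4a1 and Col4a2 fell, from 705 ± 40.4 to 544 ± 28.6 and from 332 ± 10.8 to 231 ± 5.55 CPM, and Col4a5 fell 1.56-fold. Matrix glycoproteins and proteoglycans rose in 13 of 24 and fell in 5 (median 0.28). Nidogen 1 (Nid1) rose 2.86-fold, syndecan 3 (Sdc3) 3.44-fold and fibulin 2 (Fbln2) 1.92-fold, while osteopontin (Spp1), a secreted phosphoprotein, fell 1.81-fold to 634 ± 5.22 CPM and versican (Vcan) 2.02-fold.

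Integrins, laminins and their cytoplasmic partners fell in 15 of 27 and rose in 8 (median -0.37). The hemidesmosome integrin Itgb4 gave 187, 194 and 192 CPM in vector and 98.4, 95.9 and 104 in deficient, 1.93-fold lower (adjusted p = 1.73e-12). The laminin chain Lamc1 fell 1.64-fold, whereas the chain Lamb3 rose 1.21-fold. The fibronectin receptor chain Itga5 rose from 12.2 ± 0.0336 to 19.1 ± 1.1 CPM and Itgav 1.27-fold. Proteases and inhibitors at the cell surface rose in 14 of 27 and fell in 5 (median 0.38). Urokinase (Plau), which activates plasmin, rose 1.67-fold. The metalloproteinase Adam12 rose from 1.62 ± 0.542 to 11.9 ± 0.607 CPM and the granzyme B inhibitor Serpinb9 3.71-fold, while Adam8 fell 2.06-fold.

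Genes of TGF-beta and BMP signalling rose in 18 of 40 and fell in 8 (median 0.16). Among ligands, Bmp7 gave 11.1, 8.36 and 10.3 CPM in vector and 50.1, 52.3 and 61.8 in deficient, 5.5-fold higher (adjusted p = 1.65e-14), against 21.9 CPM in WT and 39.6 in mimetic. The activin chain Inhba rose from 4.7 ± 0.608 to 12.2 ± 0.455 CPM. Among receptors, the signalling kinase Tgfbr1 rose 1.6-fold, and the co-receptor Tgfbr3 (betaglycan) fell from 12.3, 13.9 and 10.7 to 2.35, 1.71 and 2.09 CPM, 5.99-fold (adjusted p = 6.24e-11). Among targets, Pmepa1, which feeds back on SMAD signalling, gave 141, 141 and 139 CPM in vector and 266, 269 and 327 in deficient. All 3 deficient libraries were above every other library of the series, and the difference from WT was 2.73-fold and from mimetic 1.9-fold (adjusted p = 1.71e-13 and 7.38e-10). Id2, an inhibitor of helix-loop-helix factors induced by BMPs, rose 1.45-fold.

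Immediate early and stress-responsive genes, not all of them transcription factors, rose in 22 of 33 and fell in 3, with a median of 0.43, the largest upward share among the lists examined. Atf3, a stress-induced bZIP factor, gave 11.9, 10.1 and 10.8 CPM in vector and 52.8, 50.2 and 48.4 in deficient, 4.61-fold higher (adjusted p = 1e-14). Gadd45a and Gadd45b, stress sensors that act on kinases and cell cycle, rose 2.31-fold and 2.61-fold. The AP-1 subunits Jun and Fosl2 rose 1.83-fold and 2.17-fold, and Fos from 5.81 ± 0.395 to 8.93 ± 0.403 CPM. Egr1 fell from 22.8, 23.2 and 21.3 to 16.2, 15.7 and 17.8 CPM (1.36-fold, adjusted p = 0.00123), as did the antiproliferative Btg2 and the RNA-decay factor Zfp36, 1.32-fold and 1.34-fold. Of the 33 genes, 23 were called higher in deficient than in WT and 2 lower, and 19 higher than in mimetic and 3 lower. RAS-MAPK components and feedback genes rose in 13 of 30 and fell in 9 (median -0.03). The nuclear MAPK phosphatases Dusp1 and Dusp5 rose, from 1.91 ± 0.305 to 9.74 ± 0.753 and from 36.2 ± 2.38 to 78.6 ± 2.6 CPM. Dusp6, the ERK-specific phosphatase, was not called (261 ± 3.1 and 246 ± 5.19 CPM), and Spry1 and Spry4, inhibitors of receptor signalling, fell 1.67-fold and 1.46-fold.

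YAP and TEAD pathway genes rose in 14 of 27 and fell in 5 (median 0.15). Among targets, Cyr61 (CCN1), a matricellular protein, gave 48.3, 44.8 and 48.6 CPM in vector and 166, 172 and 188 in deficient, 3.71-fold higher (adjusted p = 5.45e-16). Ankrd1, another target, gave 75.1, 72.4 and 77.1 and 208, 193 and 199 CPM, 2.67-fold higher (adjusted p = 2.05e-15). Every deficient library was more than 2 times every vector library in both genes. Ctgf (CCN2), often read beside them, was not called, at 165, 175 and 161 and 190.4, 177 and 175 CPM (adjusted p = 0.0764), but was called higher with the replicate number as a block (adjusted p = 0.0323), with library size as the only scaling (0.0163), among genes of at least 5 CPM in 3 libraries (0.0338) and without vector replicate 2 (0.0393). Amotl2, which binds YAP and holds it back, rose 2.08-fold, and the DNA-binding partner Tead1 fell from 76.9, 85.5 and 39.7 to 30.9, 31.9 and 35 CPM (2.06-fold, adjusted p = 3.09e-05), with vector replicate 3 nearer to the deficient libraries than to the other vector libraries.

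Among growth factors, receptors and their binding proteins, 20 of 37 rose and 11 fell (median 0.27). The EGF receptor ligands amphiregulin (Areg) and epiregulin (Ereg) gave 136, 138 and 137 and 60.2, 57.7 and 57.4 CPM in vector and 301, 288 and 270.0 and 124, 119 and 115 in deficient. Both rose, 2.09-fold and 2.04-fold (adjusted p = 2.38e-13 and 2.06e-13), and both lie on chromosome 5, whose genes were on the whole higher. Fgfbp1, which frees FGFs from the matrix, rose from 3.87 ± 0.533 to 13.9 ± 0.696 CPM, also on chromosome 5. Several receptors fell. Met, the receptor of hepatocyte growth factor, gave 827, 872 and 805 CPM in vector and 412, 400.4 and 379 in deficient, 2.1-fold lower (adjusted p = 1.65e-14). Erbb3, the neuregulin receptor, fell 2.17-fold and the ligand Fgf1 2.78-fold, while Egfr was not called (15 ± 1.3 and 13.4 ± 1.48 CPM). The ephrin receptor Ephb3 rose from 1.98 ± 0.346 to 14.4 ± 1.23 CPM. WNT pathway genes rose in 12 of 28 and fell in 7 (median 0.15): the ligand Wnt7a rose from 7.48 ± 0.272 to 22.7 ± 1.07 CPM and was low in WT (1.4 CPM), the receptor Fzd6 rose 1.79-fold, and Fzd5 fell 1.69-fold, as did Apc and Gsk3b of the beta-catenin destruction complex, 1.52-fold and 1.5-fold.

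**Figure D3:**
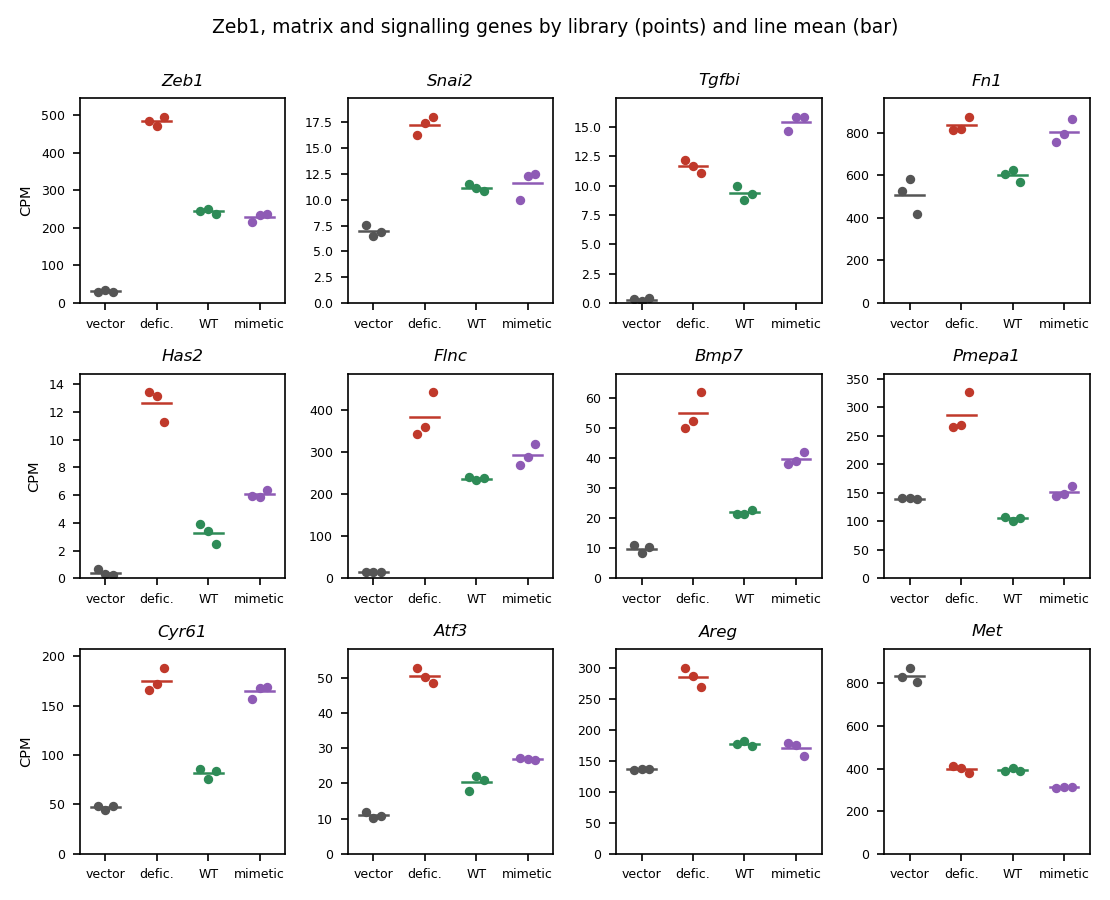
CPM (vertical axes, from 0) of Zeb1 and 11 matrix, signalling and target genes in the 3 libraries of each line, with vector, deficient, WT and mimetic from left to right; points are libraries and bars are line means. Has2, Bmp7, Pmepa1, Atf3 and Areg are highest in the deficient line, Tgfbi and Cyr61 are high in deficient and mimetic, and Met is low in all 3 Zeb1 lines.

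Among 25 protein tyrosine phosphatases, 8 rose and 8 fell (median -0.01), with Ptpn13 the largest rise. The lymphoid phosphatase Ptpn22 rose from 23.1 ± 0.538 to 72.9 ± 0.359 CPM and the adhesion-linked Ptprm from 20.5 ± 0.508 to 46.3 ± 1.46. The receptor phosphatases Ptpru and Ptpre fell 3.54-fold and 1.79-fold. Ptpn1 was not called (70.0 ± 2.59 and 66.6 ± 2.00 CPM).

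Interferon pathway genes fell in 12 of 23 and rose in 2 (median -0.29). Parp14 and Parp9, mono-ADP-ribosylating enzymes induced by interferon, fell from 9.35 ± 1.75 to 2.85 ± 0.698 and from 27.6 ± 2.58 to 16 ± 0.621 CPM. The interferon gamma receptor Ifngr1 fell 1.55-fold and the RIG-I activator Trim25 1.69-fold. The transcription factor Irf7 was not called. Against WT, 12 of these 23 genes were higher in deficient and 0 lower. Antigen presentation genes rose in 5 of 14 and fell in 4 (median 0.12). The classical class I genes H2-K1 and H2-D1 gave 55.8, 52.4 and 56.6 and 143, 135 and 149 CPM in vector and 145, 153 and 150.2 and 205, 218 and 249 in deficient. Both rose, 2.72-fold and 1.57-fold, but reads of these near-identical genes may have been split between them or their relatives, so their single values are uncertain. Their light chain B2m fell 1.11-fold and the trimming peptidase Erap1 1.73-fold.

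Inflammatory and NF-kappaB genes rose in 13 of 33 and fell in 11 (median -0.02). The TWEAK receptor Tnfrsf12a rose from 157 ± 12.4 to 377 ± 5.52 CPM and the alarmin Il33 from 3.14 ± 0.508 to 10.1 ± 1.04, while the adhesion molecule Vcam1 and the chemokine Cx3cl1 fell 1.95-fold and 2.04-fold. Csf2 (GM-CSF), a myeloid growth factor, was not called, at 21.5, 22.8 and 25.1 CPM in vector and 23.3, 21.7 and 20.7 in deficient. In WT it stood at 2.84, 2.46 and 3.06 CPM and in mimetic at 3.99, 3.7 and 3.33 CPM, 7.9-fold and 5.98-fold below deficient (adjusted p = 1.55e-14 and 7.31e-13). Against WT 22 of the 33 genes were higher in deficient and 5 lower, and against mimetic 15 and 1.

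Genes of fatty acid synthesis, oxidation and storage fell in 20 of 33 and rose in 8 (median -0.22; 5 rose without deficient replicate 3 or without vector replicate 1). Cpt1a, the gate of mitochondrial fatty acid oxidation, gave 212, 221 and 217 CPM in vector and 95.9, 101 and 105 in deficient, 2.16-fold lower (adjusted p = 1.96e-14). The desaturases Scd1 and Fads2 fell 1.49-fold and 1.56-fold and fatty acid synthase (Fasn) 1.17-fold, while Fads3 and the lipid droplet protein Plin2 rose 1.98-fold and 1.37-fold. Among 30 genes of sterol synthesis and uptake, 15 fell and 8 rose (median -0.13; 5 rose without vector replicate 2). Hmgcs1, an early enzyme of cholesterol synthesis, fell 1.56-fold, whereas Cyp51, a later one, rose 1.19-fold. Against mimetic 22 of the 30 sterol genes were higher in deficient and 1 lower.

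Glycolysis and hypoxia genes rose in 16 of 38 and fell in 11 (median 0.04). Beside Slc16a3, carbonic anhydrase 12 (Car12), which handles protons outside the cell, rose from 1.29 ± 0.241 to 6.95 ± 0.373 CPM and the stress protein Ndrg1 1.8-fold. The enzymes Aldoc and Pfkm fell 2.18-fold and 1.83-fold, and Hif1a and Gapdh were not called. NRF2 and glutathione genes fell in 20 of 38 and rose in 10 (median -0.20). Aldh3a1, an aldehyde dehydrogenase, gave 142, 145 and 153 CPM in vector and 73.1, 65.3 and 69.7 in deficient, 2.11-fold lower (adjusted p = 1.02e-12), and the glutathione transferase Gsta4 fell 2.12-fold. The glutathione synthesis gene Gclm and Txnrd1 were not called, and heme oxygenase (Hmox1) and Gpx1 rose 1.57-fold and 1.49-fold. Among secreted and metal-handling genes, 8 of 17 fell and 1 rose (median -0.34): ceruloplasmin (Cp) and metallothionein 1 (Mt1) fell 2.58-fold and 2.51-fold.

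Among genes of the unfolded protein and integrated stress responses, 18 of 38 rose and 10 fell (median 0.07). Ppp1r15a (GADD34), which lifts the translational block, gave 45.6, 49.2 and 47.6 CPM in vector and 141, 141 and 148 in deficient, 3.02-fold higher (adjusted p = 4.63e-16). The apoptosis-linked factor Ddit3 (CHOP), the glutathione-degrading Chac1 and the ER chaperone Hspa5 (BiP) rose 2.16-fold, 2.06-fold and 1.5-fold. The amino acid enzyme Asns fell 1.74-fold, from 1307 ± 49.1 to 752 ± 21.7 CPM, and Canx 1.57-fold. Of 32 heat shock genes, 15 rose and 7 fell (median 0.01), and against WT 2 were higher in deficient and 19 lower.

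DNA replication genes were called in both directions, 16 of 46 higher and 17 lower (median -0.01). The cyclins Ccne1 and Ccne2 rose from 6.45 ± 0.877 to 9.26 ± 0.598 and from 31.5 ± 3.72 to 58.2 ± 5.46 CPM, and the helicase subunit Mcm2 1.24-fold, while Lig1 and Cdc45 fell 1.45-fold and 1.4-fold. Against the other Zeb1 lines the group was lower: 39 of 46 were called lower in deficient than in WT and 2 higher, and 33 lower than in mimetic and 0 higher. Mitosis genes fell in 20 of 44 and rose in 11 (median -0.03; 7 rose without deficient replicate 1). The proliferation antigen Mki67 gave 893, 934 and 706 CPM in vector and 476, 484 and 535 in deficient, 1.7-fold lower (adjusted p = 2.11e-08), and Top2a and Cenpf fell 1.39-fold and 1.45-fold. Cell cycle inhibitors and p53 targets rose in 15 of 37 and fell in 9 (median 0.10). The kinase inhibitors Cdkn1b (p27) and Cdkn1a (p21) rose 1.65-fold and 1.55-fold, Trp53inp1 2.22-fold, and cyclin D2 (Ccnd2) fell from 398, 447 and 334 to 187, 188 and 193 CPM, 2.08-fold (adjusted p = 8.74e-11). Cyclin D1 (Ccnd1) was not called, at 1043 ± 44 and 1038 ± 37.4 CPM.

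The subunits of the NuRD complex, named in the series title as a partner of Zeb1, were called in both directions. Of 17 tested, 4 rose and 7 fell (median -0.06). The remodelling ATPase Chd4 gave 695, 672 and 659.5 CPM in vector and 612, 614 and 638 in deficient, 1.09-fold lower (adjusted p = 0.00753), and its paralogue Chd3 fell 1.61-fold to 241 ± 8.54 CPM. The deacetylase Hdac1 fell 1.2-fold and the histone-binding Rbbp7 1.23-fold. The adaptor subunits Mta1 and Mta2 rose 1.24-fold and 1.13-fold, and Mta3 from 19.3 ± 0.753 to 43.3 ± 3.29 CPM (SD, n = 3), 2.24-fold (adjusted p = 7.51e-12). Mta3 stood at 44.6 CPM in WT and 45.3 in mimetic and was not called between deficient and either. With library size as the only scaling, Chd4 was not called (adjusted p = 0.0768).

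Genes of other Zeb1 corepressors rose in 4 of 20 and fell in 9 (median -0.14): the scaffold Ncor1 fell 1.69-fold, and Ctbp1 rose 1.15-fold. Lysine acetyltransferases fell in 12 of 19 and rose in 1 (median -0.28). Ep300 and Crebbp, the paired coactivators p300 and CBP, gave 119, 131 and 78.5 and 87, 94.7 and 62.4 CPM in vector and 70.0, 78.3 and 81.1 and 49.7, 50.9 and 64 in deficient. Both were called lower (adjusted p = 0.00112 and 0.000561), although the libraries of the lines overlapped. Kat2b (PCAF) fell 1.26-fold and Kat6a 1.41-fold, and Kat5 rose 1.25-fold. Deacetylases fell in 8 of 15 and rose in 1 (2 rose without deficient replicate 3), the 1 being Hdac11 at 1.57-fold. Heterochromatin and DNA methylation genes fell in 21 of 32 and rose in 2 (median -0.21), with the methyltransferase Dnmt3a and the demethylating enzyme Tet2 1.53-fold and 1.58-fold lower. Heterochromatin is known to silence satellite repeats. The share of counts from satellite-containing gene models was 1.05% ± 0.55 in deficient and 0.501% ± 0.0971 in vector (SD, n = 3). The exact two-sided permutation test gave p = 0.2. In WT and mimetic libraries the share was at most 0.0312%, and a link to the heterochromatin genes was not tested.

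Actin and myosin genes rose in 19 of 38 and fell in 7 (median 0.14). Non-muscle myosin IIB (Myh10) rose from 60.6 ± 3.97 to 133 ± 14.5 CPM and the small GTPase Rhob 1.62-fold, while gamma-actin (Actg1) fell 1.66-fold and filamin A (Flna) was not called. Myosin IIA (Myh9) was not called either (log2 fold change -0.06), but was called lower without deficient replicate 3 (-0.21, adjusted p = 0.00256). Axon guidance and ephrin genes rose in 14 of 37 and fell in 11 (median 0.05). Neuropilin 1 (Nrp1), a co-receptor of semaphorins and VEGF, gave 2.57, 2.64 and 3.62 CPM in vector and 13.5, 12.4 and 12 in deficient, 4.25-fold higher (adjusted p = 1.62e-12), far below WT at 67 ± 0.647 CPM. Plexin D1 (Plxnd1) and the secreted Slit2 fell 2.02-fold and 2.47-fold. Lysosomal genes fell in 15 of 42 and rose in 7 (median -0.02), with the hexosaminidase Hexa down from 15 ± 1.24 to 4.08 ± 0.47 CPM. S100 and annexin genes fell in 11 of 20 and rose in 6 (median -0.24), with Anxa6 1.73-fold lower and Anxa8 1.76-fold higher.

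Of 81 genes for ribosomal proteins, 32 rose and 9 fell (median 0.09), while against WT 2 of the 81 were higher in deficient and 64 lower. Mitochondrially encoded genes fell in 10 of 12 and rose in 0 (median -0.53), and 8 of the 12 were higher in deficient than in WT and 0 lower. Both groups have near-identical copies in the nuclear genome, so their counts per gene are uncertain.

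**Figure D4:**
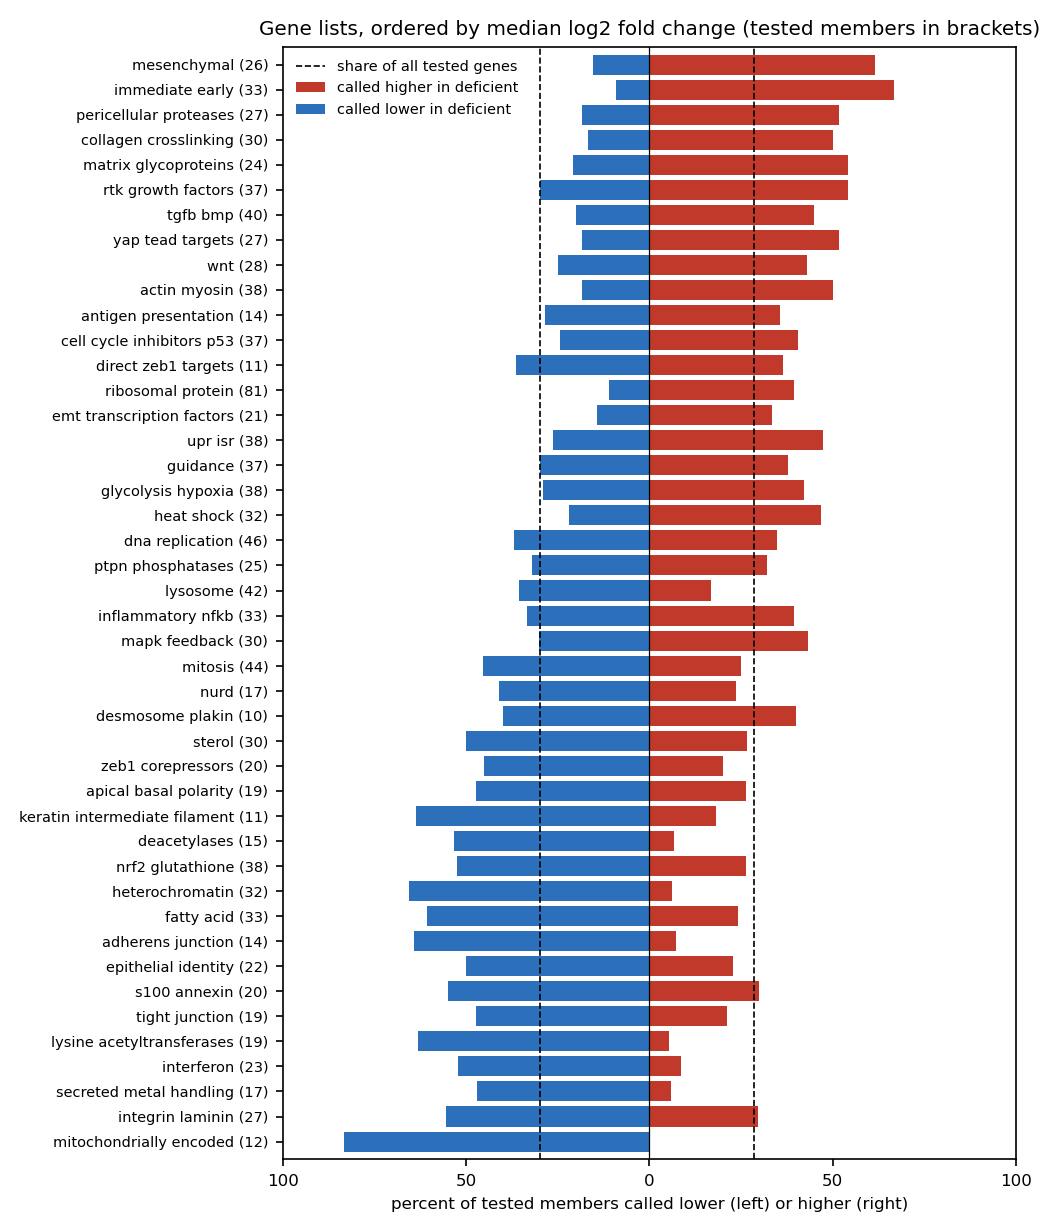
For the 42 gene lists and for ribosomal protein and mitochondrially encoded genes, the percentage of tested members called higher in deficient than in vector (red, to the right) and called lower (blue, to the left), ordered by the median log2 fold change. Dashed lines mark the percentages among all tested genes, 28.4 higher and 29.8 lower; mesenchymal and immediate early genes reach furthest to the right, and mitochondrially encoded, heterochromatin and adherens junction genes are among those that reach furthest to the left.

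Median differences varied between chromosomes. Among 9687 genes of at least 5 CPM, 28.5% were called higher in deficient than in vector and 34.3% lower, with a median log2 fold change of -0.03. The median was 0.25 for the 641 genes of chromosome 5, where 64.3% were called higher and 10.1% lower. Chromosomes 12 and 14 had medians of 0.17 and 0.15. The lowest medians were -0.28 on chromosome 16, where 63.4% of genes were called lower and 6.71% higher, and -0.27 on chromosome 18, followed by -0.24 on chromosome 7, -0.19 on chromosome 11 and -0.18 on chromosome 13. Between deficient and WT the highest medians were 0.25 on chromosome 14 and 0.22 on chromosome 3, chromosome 5 stood at 0.12, and the lowest was -0.14 on chromosome 8. Between deficient and mimetic the medians ran from -0.08 to 0.10. Several genes described above lie on shifted chromosomes. Ptpn13, Cldn3, Cldn12, Areg, Ereg, Fgfbp1 and Fosl2 are on chromosome 5, with log2 fold changes of 6.30, 1.39, 1.51, 1.06, 1.03, 1.83 and 1.12, all larger than its median, while Ctbp1 and Cyp51 (0.20 and 0.25) were close to it and Spp1, Tgfbr3, Slit2 and Fam20c fell. Ctnna1, Cdh2, Apc and Fgf1 are on chromosome 18, with -0.63, -0.49, -0.61 and -1.47, while Zeb1, on the same chromosome, rose. Crebbp, Gsk3b, Dlg1, Ppl and Parp9 are on chromosome 16, with -0.57, -0.58, -0.44, -0.51 and -0.78. The part of the chromosome medians in these single-gene values was not tested.

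**Figure D5:**
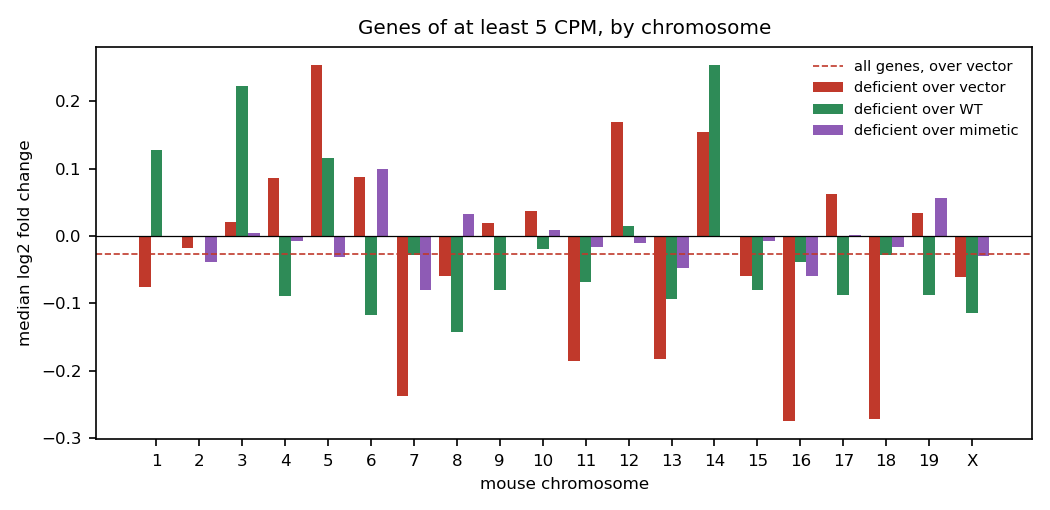
Median log2 fold change (vertical axis) of genes of at least 5 CPM on each mouse chromosome (horizontal axis), for deficient over vector (red), over WT (green) and over mimetic (purple); the dashed line is the median of all genes for deficient over vector. Over vector, chromosome 5 stands highest at 0.25 and chromosomes 16 and 18 lowest; over WT, chromosomes 14 and 3 stand highest at 0.25 and 0.22; over mimetic, medians run from -0.08 to 0.10.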

How the data were processed

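RNA was sequenced from the 3' end of transcripts (QuantSeq 3' mRNA FWD, per the labels' protocols) in 12 libraries of 4 lines of 393P cells. The authors deposited 1 table of read counts per gene, whole numbers with no normalization. STAR and mm10 are named in the submitters' processing notes; not given in the sources used here are the counting tool, its annotation and its use of strand, so overlapping genes, antisense genes and near-identical copies are uncertain. The table held 12208 genes, none with fewer than 1 count in any library, so the percentages called and the marker tallies cover only genes with a count in all 12 libraries, and other genes were not analysed here.

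Genes were tested with edgeR 4.0.16 (R 4.3.3): filterByExpr kept 12027 genes and removed 181, libraries were scaled by TMM, and each of the 4 lines had its own coefficient in 1 model of the 12 libraries, with a shared estimate of spread. Calls used the quasi-likelihood F test with Benjamini-Hochberg adjustment over all tested genes and a threshold of 0.05. A standard error is the log2 fold change divided by the square root of F. Levels are CPM of TMM-scaled library sizes, given per library or as mean ± SD. DESeq2 1.42.0, limma 3.58.1 (voom), other scalings and filters, a 2-fold minimum and leaving out each library were alternatives. On simulated counts for 11967 genes of this comparison, all of the 1.5-fold and 2-fold changes were called at 10 CPM or more, 86.1% of the 1.25-fold changes, and 0.085% of unchanged genes. Over all levels 94%, 82% and 66% of the 2-, 1.5- and 1.25-fold rises were called, and 81.6% of the 2-fold falls. Only 50 genes were changed at each fold and no library was made to deviate. These rates need not hold for the data, where 58.2% of genes were called.

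The comparison, the gene lists and the marker lists were chosen with earlier results of these data known, so a list's count is not independent evidence of its direction. Named genes are the 20 largest changes in each direction at a mean of at least 10 CPM with no overlap of libraries and an annotated name, and in each list preset key genes, up to 4 called members in each direction by size at a mean of at least 5 CPM, and 2 that were not called. Gene positions come from GENCODE M21 (GRCm38), which held 12195 of the IDs. Libraries of a line differed in their counts (mean chi-square per gene of 2.96 or more for every pair), so none was a copy. Some genes are not reported here.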

Additional observations from a re-analysis of the deposited data

How the results depend on the processing

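Against 3421 genes called higher and 3580 lower in deficient than in vector, DESeq2 called 3398 and 3545, limma's voom 3434 and 3602, and edgeR on the 6 libraries of these 2 lines alone 3083 and 3418. Genes at least 2-fold changed, 669 higher and 358 lower, numbered 300 and 222 when only genes of at least 5 CPM in 3 libraries were kept, where fewer genes are tested, and 359 and 190 when edgeR tested against a 2-fold minimum, a stricter null. Leaving out each library in turn gave 3045 to 3423 higher and 3277 to 3623 lower, 612 to 672 at least 2-fold higher and 337 to 396 at least 2-fold lower, 2867 to 3455 higher and 2825 to 3394 lower against WT, and 1425 to 1983 higher and 1137 to 1800 lower against mimetic. Of the 468 named genes, 0 changed direction under any alternative with a call in either fit. Sign changes of genes called in neither fit were not counted. Of the 370 called, 17 lost the call under at least 1 alternative, while 35 of the 98 not called gained one. Under the filter at 5 CPM, which leaves out low genes, the counts higher fell to 0 for adherens junction and interferon, 3 for polarity and epithelial identity, and 1 for keratin and direct ZEB1 target genes, and collagen genes lower to 3. With library size as the only scaling, heterochromatin genes higher numbered 4, and on the 2 lines alone sterol and mitosis genes higher numbered 5 and 7.

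The replicate number did not pair the libraries: same-numbered deficient and vector libraries deviated from their line means with correlations of -0.14, 0.01 and -0.13. With the replicate block the fit called 3467 genes higher and 3613 lower, 655 and 355 of them at least 2-fold, 3357 and 3216 against WT and 1820 and 1558 against mimetic. At 31010854 to 39029599 counts per library, depth limits genes near or under 1 CPM, such as Gdnf, whose vector level rests on 2 to 4 counts.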
